A study of Danio rerio with 6 samples.

Results

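The genes described are the claudins and the other genes of the tight junction in zebrafish larvae after embryonic alcohol exposure (EAE). They were picked out by gene symbol, as the symbols that begin with cldn, ocln, tjp1 to tjp3, marveld, f11r, jam2, jam3 or cgnl1, together with *cgna* and *cgnb*. This gave 51 of the 30713 named genes in the deposited table, and 46 of the 51 had enough reads to be tested. They comprised 29 claudins, 2 claudin domain genes (*cldnd1a* and *cldnd1b*), 6 genes for occludin and its MARVEL relatives, 6 genes of the junctional adhesion molecule (JAM) family, 5 genes for zonula occludens (ZO) scaffolds and 3 cingulin genes. This set, and the lists of other genes described beside it, were chosen with earlier results of these data known.

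RNA-Seq was performed on pools of homogenized whole larvae of the WT AB strain, a common laboratory background, collected at 7 dpf. The EAE pools (n = 3) came from fish kept in 1% EtOH between 12 hpf and 5 dpf, and the control pools (n = 3) from fish kept in 0% EtOH over the same interval. Both groups spent the remaining time until collection without EtOH and with paramecia as food. Each pool held 30 larvae. The study's results speak of 3 independent groups of larvae, its methods describe combined clutches, and the sample labels describe siblings split among tubes. Whether the pools are separate clutches is thus not settled. The p-values measure the spread between these pools, which may in part be technical. In a homogenate of whole larvae, a change in the number of cells of one type and a change in RNA per cell cannot be told apart.

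Tight junctions seal the space between neighbouring epithelial or endothelial cells near their apical edge. Claudins are small proteins that span the membrane and join into strands, and the mix of claudins in a tissue sets which ions can pass between its cells. Occludin and tricellulin, the products of the *ocln* and *marveld2* genes, lie in the same strands, with tricellulin concentrated where the corners of cells meet. JAM proteins are adhesion molecules of the immunoglobulin family, ZO proteins tie the strands to actin from inside the cell, and cingulin is a further cytoplasmic component. Fish carry more claudin genes than mammals, and several of them are known by letters because they have no single mammalian counterpart. In a freshwater larva the outer skin layer, the gut lining, the kidney tubules and the vessels of the brain all rely on these junctions.

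Reads on named genes totalled 19921809 to 23638705 in the EAE pools and 17264955 to 20724876 in the control pools. Levels are given as CPM, a count scaled to the size of its library, after TMM normalization, which also corrects for library composition. They are not corrected for gene length, so only the same gene is compared between groups. Differences are log2 fold changes, EAE over control, obtained with the quasi-likelihood test of edgeR and given with their standard error (SE). The p-values were adjusted by the Benjamini-Hochberg method over all 21617 genes tested, and the threshold was 0.05. The 5 members left untested, *cldn10a*, *cldn17*, *cldnd*, *cldng* and *marveld3*, had at most 12 reads in any pool.

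In EAE larvae 9 of the 46 tested members rose and 0 fell. The 9 were the claudins *cldna*, *cldne*, *cldnf*, *cldn7b* and *cldn15a*, the occludin gene *oclna*, the tricellulin gene *marveld2b*, the JAM gene *f11r.1* and the ZO gene *tjp3*. They made up 19.6% of the 46 tested members, whereas 7.22% of all tested genes were higher in EAE larvae. For falls the background was 6.95% of all tested genes, and of the members 1, *cldnc*, was lower at an unadjusted p-value under 0.05, as were 14.3% of all tested genes. DESeq2's Wald test gave 8 higher members, beside 5.58% of all genes it tested, and 0 lower ones. limma-voom also gave 0 lower members. The difference from the background was not tested, and the members were chosen with earlier results of these data known. The log2 fold changes of the 9 genes lay between 0.20 and 0.62, and 1 of them, *cldna*, exceeded 1.5-fold. The median over the 46 members was 0.06, beside 0.00077 over all genes tested. All 3 EAE pools lay above all 3 control pools for 15 tested members (32.6%), which include the 9, against a background of 16.0%. For 0 tested members did all EAE pools lie below all control pools, against a background of 16.0% (3464 of 21617 genes).

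The remaining 37 tested members did not pass. The 95% interval of the log2 fold change lay within 1.5-fold in either direction for 33 of them and within 1.25-fold for 24. Of the 9 genes that rose, all but *cldna* changed by less than 1.5-fold, and *cldn15a*, *f11r.1* and *tjp3* by less than 1.25-fold. An interval within these bounds can thus still hold a change of the size that passed. Summed over all 51 members, the level was 2298, 2225 and 2205 CPM in EAE replicates 1, 2 and 3, against 2036, 2062 and 2029 CPM in control replicates 1, 2 and 3. The sums of the groups did not overlap, but they include the 9 genes that rose and weigh most the genes with most reads. They are thus not a result separate from those 9. EAE replicate 1 held the highest level of 6 of the 9 genes that rose, and of 686 of the 1560 genes that rose overall. Without EAE replicate 1, 7 of the 9 passed.

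**Figure D1:**
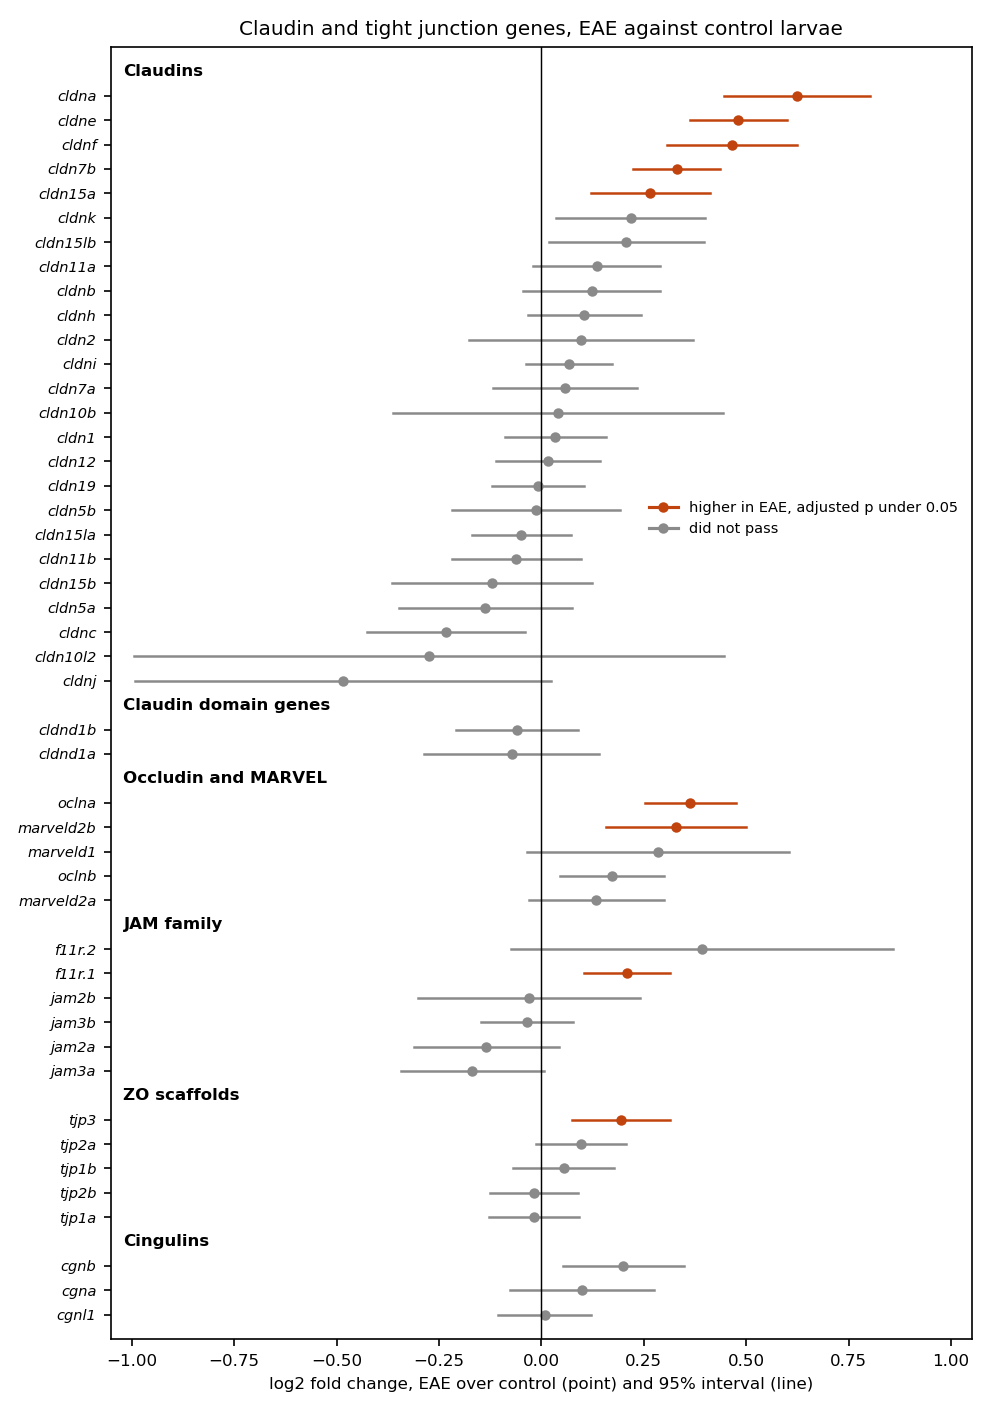
Log2 fold changes (EAE over control, 3 pools each) of the 46 tested members by gene family; points are estimates, lines are 95% intervals, and coloured points passed an adjusted p-value of 0.05. The 9 genes that passed all lie to the right of 0, from *tjp3* at 0.20 to *cldna* at 0.62, and the widest intervals belong to *cldnj* and *cldn10l2*, which had few reads.

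Among the member claudins, 5 of 25 tested genes rose (20%) and 20 did not pass, with a median log2 fold change of 0.06. The background was 7.22% of all tested genes, and the difference from it was not tested. The smallest p-value was that of *cldne*, a claudin of the fish epidermis. Its level was 205 CPM, 184 CPM and 188 CPM in EAE replicates 1, 2 and 3, against 145 CPM, 139.6 CPM and 129 CPM in control replicates 1, 2 and 3. The mean was 192 ± 11.5 CPM in EAE larvae and 138 ± 7.99 CPM in controls (SD, n = 3 each), a log2 fold change of 0.48 (SE 0.06, adjusted p = 2.1e-05). Every EAE pool was above every control pool, and *cldne* passed in all 6 fits that each omitted 1 pool, with log2 fold changes of 0.43 to 0.52.

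The widest change among the tested member claudins was that of *cldna*, another claudin known by a letter. EAE replicates 1, 2 and 3 held 34.4 CPM, 39.2 CPM and 29.3 CPM of *cldna*, and control replicates 1, 2 and 3 held 22.1 CPM, 22.8 CPM and 21.95 CPM. The EAE pools varied more among themselves than the controls did, yet even the lowest of them exceeded every control pool. The log2 fold change of *cldna* was 0.62 (SE 0.09, adjusted p = 9.8e-05), or 54.2% more. Across the fits without one pool it ranged from 0.52 to 0.72, and all 6 passed.

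The level of *cldnf* was 27.4, 24.2 and 23.1 CPM in the EAE pools, against 17.7, 18.5 and 18.1 CPM in the control pools. The groups did not overlap, and the control pools agreed within 1 CPM. This amounts to a log2 fold change of 0.47 (SE 0.08, adjusted p = 5.5e-04), and it passed in all 6 fits without one pool.

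Of the claudin-7 paralogs *cldn7b* rose and *cldn7a* did not pass. *cldn7b* had 135, 129.8 and 125.3 CPM in the EAE pools, against 107, 104 and 99.6 CPM in the control pools. The gene rose by 0.33 on the log2 scale (SE 0.05, adjusted p = 3.2e-04), with no overlap of the groups and a pass in all 6 fits without one pool. For *cldn7a* the EAE pools held 23.6, 22.0 and 28.1 CPM and the control pools 24.4, 22.0 and 24.3 CPM, so the groups overlapped. Its log2 fold change was 0.06, with a 95% interval of -0.12 to 0.23. The count ratio of *cldn7b* to *cldn7a* within a pool was 5.73, 5.91 and 4.46 in EAE larvae and 4.38, 4.75 and 4.09 in controls. The difference of the mean log2 ratio, 0.27, had an exact permutation p of 0.2 (two-sided, n = 3 each), and the ratios of the groups overlapped. The smallest p that 3 against 3 allow is 0.1, so this test could not decide whether the paralogs differed. In the RefSeq annotation *cldn7b* overlaps *nlgn2b*, and whether the authors' counting separated them by strand is not given in the sources used here.

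The claudin-15 genes are related to mammalian claudin-15, which forms cation pores in the intestine. Of the 4, *cldn15a* rose, to 42.4, 38.6 and 45.4 CPM in the EAE pools, against 35.5, 37.2 and 32.5 CPM in the control pools. The groups did not overlap, but the gap between the lowest EAE and the highest control pool was narrow. *cldn15a* rose by 0.27 on the log2 scale (SE 0.07, adjusted p = 0.015). It did not pass without EAE replicate 3 or without control replicate 3 (adjusted p up to 0.076). *cldn15la*, whose reporter line marks the zebrafish gut, was at 84.4, 77.8 and 82.7 CPM in the EAE pools, against 77.5, 87.9 and 88.1 CPM in the control pools. Its groups overlapped, with a log2 fold change of -0.05 and a 95% interval of -0.17 to 0.07. *cldn15lb* was at 21.0, 16.9 and 21.0 CPM in the EAE pools and 17.4, 18.1 and 15.6 CPM in the control pools, a log2 fold change of 0.21 with an adjusted p of 0.13, and it passed in 1 fit, without EAE replicate 2 (adjusted p = 0.030). *cldn15b* had a log2 fold change of -0.12 (95% interval -0.36 to 0.12). The ratio of *cldn15a* to *cldn15b* was 6.14, 6.90 and 7.52 in the EAE pools and 5.26, 5.44 and 4.89 in the control pools. These ratios did not overlap (exact permutation p = 0.1, two-sided, the smallest that 3 against 3 allow). The pair was 1 of 22 chosen after the values were seen, and its exact p adjusted over them was 0.23. This test thus could not decide whether the paralogs differed.

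The claudins *cldn5a*, *cldn5b*, *cldnk* and *cldn19*, known from vessels, glia or kidney, did not pass. *cldn5a*, a claudin of the blood-brain barrier, was at 8.38, 9.95 and 8.51 CPM in the EAE pools and 10.1, 9.15 and 10.1 CPM in the control pools. Its log2 fold change was -0.14, with a 95% interval of -0.35 to 0.07. Its paralog *cldn5b* was at 10.05, 11.1 and 9.92 CPM in the EAE pools and 9.68, 10.02 and 11.6 CPM in the control pools, a log2 fold change of -0.01 with an interval of -0.22 to 0.19. The EAE and control pools overlapped for both, and no change was detected within the limits of these intervals. Pools of whole larvae do not show brain vessels apart from other tissues. *cldnk*, which marks myelinating glia in zebrafish, was at 15.6, 15.6 and 18.4 CPM in the EAE pools and 14.2, 13.3 and 15.01 CPM in the control pools. All EAE pools of *cldnk* were above the controls, but the log2 fold change of 0.22 did not pass (adjusted p = 0.10). *cldn19*, which in mammals is found in kidney tubules and Schwann cells, was at 69.1, 73.1 and 73.2 CPM in the EAE pools and 74.0, 68.3 and 74.2 CPM in the control pools. Its interval of -0.12 to 0.10 is among the narrowest of the family.

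*cldnj*, which is needed for otoliths in the zebrafish ear, rested on few reads, with 27, 26 and 35 in the EAE pools and 37, 44 and 31 in the control pools. Its log2 fold change was -0.48 with an interval of -0.99 to 0.02, and its groups overlapped. *cldn10b*, from a branch of claudins that form ion pores in mammals, had 68, 60 and 49 reads in the EAE pools and 67, 34 and 56 in the control pools, a log2 fold change of 0.04 (interval -0.36 to 0.44). *cldn10a* was untested, with 0, 1 and 1 reads in the EAE pools and 1, 3 and 2 in the control pools. At such counts no difference could be detected.

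The claudin with the most reads, *cldni*, was at 222, 207 and 209 CPM in the EAE pools and 198, 207 and 204 CPM in the control pools. Its log2 fold change of 0.07 did not pass (interval -0.04 to 0.17). *cldnc* was the one member lower at an unadjusted p-value under 0.05. It had 30.0, 26.2 and 27.0 CPM in the EAE pools, against 26.6, 35.6 and 35.7 CPM in the control pools, where replicate 1 lay within the range of EAE values. The log2 fold change of *cldnc* was -0.23 (adjusted p = 0.10), and without control replicate 1 it passed as lower. The log2 fold changes of *cldnb*, a claudin of the lateral line and skin, and *cldnh* were 0.12 and 0.10, with overlapping groups. *cldn1*, which in mammals is needed for the skin barrier, had 0.03 with an interval of -0.09 to 0.16. *cldn11a* had 0.14 and *cldn11b* -0.06, and the mammalian claudin-11 is a claudin of myelin. The rest, *cldn2*, *cldn12* and *cldn10l2*, lay at 0.10, 0.02 and -0.27. The claudin domain genes *cldnd1a* and *cldnd1b*, which are more distant relatives, had log2 fold changes of -0.07 and -0.06.

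**Figure D2:**
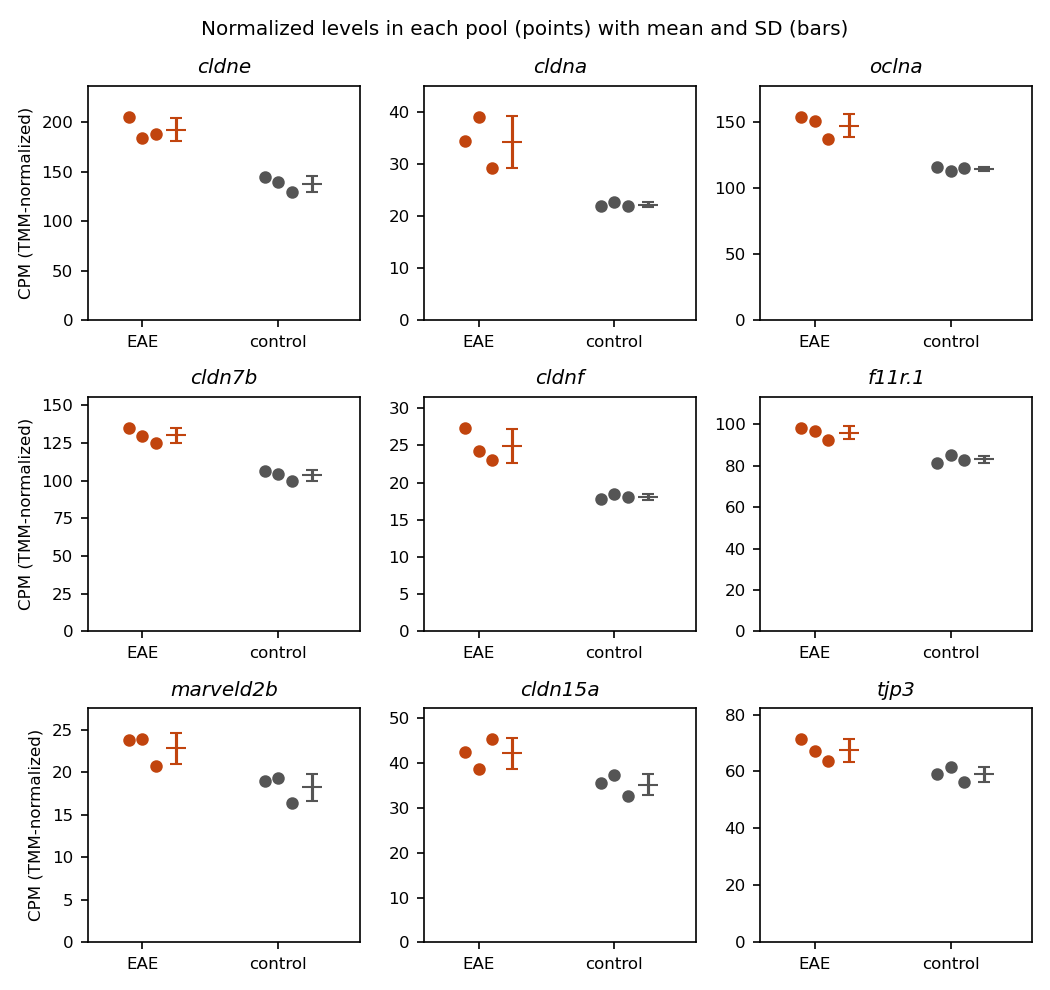
TMM-normalized CPM (y axis, from 0) of the 9 genes that rose, in the 3 EAE pools (left in each panel) and the 3 control pools (right); points are pools and bars are the mean with 1 SD. In every panel the lowest EAE pool lies above the highest control pool, widely for *cldne* at 184 CPM against 145 CPM and narrowly for *cldn15a* at 38.6 CPM against 37.2 CPM.

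Of the 5 tested genes for occludin and MARVEL proteins, 2 rose, 0 fell and all 5 had log2 fold changes above 0, with a median of 0.28. Over all tested genes 7.22% rose, 6.95% fell and 50.2% had log2 fold changes above 0. The difference from these shares was not tested, and the family is small. The summed level of the family was 277, 265 and 249.7 CPM in the EAE pools, against 222, 218 and 209 CPM in the control pools, and the groups did not overlap. This sum includes the 2 genes that rose. *oclna*, one of 2 occludin genes, was at 154, 151 and 137 CPM in the EAE pools, against 116, 113 and 115 CPM in the control pools. The control pools were nearly equal, and each EAE pool was above them. The mean was 148 ± 9.08 CPM in EAE larvae and 115 ± 1.73 CPM in controls (SD, n = 3 each), a log2 fold change of 0.36 (SE 0.05, adjusted p = 1.8e-04). It passed in all 6 fits without one pool, at 0.33 to 0.41.

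The other occludin gene, *oclnb*, was at 73.0, 66.6 and 67.8 CPM in the EAE pools, against 64.9, 63.4 and 56.0 CPM in the control pools. The groups did not overlap, but its log2 fold change of 0.17 did not pass (adjusted p = 0.066), and it passed when no filter on low counts was used. *marveld2b*, one of 2 tricellulin genes, was at 23.8, 23.9 and 20.7 CPM in the EAE pools, against 18.9, 19.3 and 16.4 CPM in the control pools. The rise of *marveld2b* was 0.33 on the log2 scale (SE 0.08, adjusted p = 0.012), and it did not pass without EAE replicate 1 or without control replicate 3 (adjusted p up to 0.069). *marveld2a* had overlapping groups and a log2 fold change of 0.13 (interval -0.03 to 0.30). The EAE pools of *marveld1*, with 107, 87 and 85 reads against 78, 49 and 82 in controls, were all higher, with a log2 fold change of 0.28 and an adjusted p of 0.23. *marveld3* had 10, 8 and 12 reads in the EAE pools and 9, 6 and 12 in the control pools and was not tested. Reads of the paralogs *oclna* and *oclnb*, and of *marveld2a* and *marveld2b*, could be shared in the authors' counting.

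In the JAM family 1 of 6 genes rose, and the family's median was -0.03. A count of 1 among 6 is too small to tell from the 7.22% of all tested genes that rose. *f11r.1*, related to mammalian JAM-A, was at 98.5, 97.0 and 92.4 CPM in the EAE pools, against 81.3, 85.1 and 82.8 CPM in the control pools. The groups were apart by more than the spread within either. *f11r.1* thus rose by 0.21 on the log2 scale (SE 0.05, adjusted p = 0.0093), and without control replicate 1 it just missed the threshold (adjusted p = 0.053). The second JAM-A gene, *f11r.2*, had far fewer reads, 40, 31 and 30 in the EAE pools and 26, 18 and 26 in the control pools. All its EAE pools were higher, with a log2 fold change of 0.39 and a wide interval of -0.07 to 0.86. *jam2a* and *jam3b*, whose products pair up in muscle cell fusion in zebrafish, had log2 fold changes of -0.13 and -0.04 with overlapping groups. *jam3a* was at -0.17 (interval -0.34 to 0.0056) and *jam2b* at -0.03. The members of the family thus lay on both sides of 0.

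Among the ZO scaffolds 1 of 5 genes rose. With so few genes, this count cannot be told from the 7.22% of all tested genes that rose. *tjp3*, which encodes ZO-3, a scaffold of epithelial cells, was at 71.6, 67.1 and 63.6 CPM in the EAE pools, against 59.1, 61.6 and 56.2 CPM in the control pools. The rise was 0.20 on the log2 scale (SE 0.06, adjusted p = 0.029). The call was the least stable of the 9: it was lost without EAE replicate 1, without EAE replicate 2, without control replicate 1 and without control replicate 3 (adjusted p up to 0.13), and with DESeq2's Wald test (adjusted p = 0.059). *tjp1a*, a ZO-1 gene with broad expression, was at 167, 175 and 181 CPM in the EAE pools and 176, 168 and 184 CPM in the control pools. Its groups overlapped, and the log2 fold change of -0.02 had an interval of -0.13 to 0.09. The interval of *tjp1b*, at 0.05, was -0.07 to 0.18. The ZO-2 genes *tjp2a* and *tjp2b* were at 0.10 and -0.02, with intervals of -0.01 to 0.21 and -0.13 to 0.09. For *tjp1a*, *tjp1b*, *tjp2a* and *tjp2b* a change of 1.25-fold in either direction lay outside the interval. That bound is wider than the rise of *tjp3*, and the interval of *tjp2a* included a rise of that size.

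None of the 3 cingulin genes passed. *cgnb* was at 32.0, 29.0 and 28.0 CPM in the EAE pools, against 26.5, 27.1 and 24.2 CPM in the control pools, with no overlap. Its log2 fold change of 0.20 had an adjusted p of 0.065. *cgna* was at 0.10 and the paracingulin gene *cgnl1* at 0.0078, each with overlapping groups. The interval of *cgnl1*, -0.11 to 0.12, was as narrow as those of the ZO genes.

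Several of these genes are neighbours. All 51 members matched a RefSeq gene of assembly GRCz12tu. The authors aligned to an earlier build, so the assembly served only to find which genes adjoin or overlap. Besides *cldn7b*, protein-coding genes overlap *cldni*, *cldn2*, *cldn10b*, *cldn12*, *cldn15b*, *tjp1a*, *tjp2a*, *cgna* and *cgnb* among the tested members, *cldn10b* and *cldn10l2* overlap each other, and non-coding RNA genes overlap *oclna* and *marveld2a* (the same one), *f11r.1*, *cldn19* and *cgna*. With only protein-coding genes counted, 9 pairs of members had no other gene between them. They form 6 groups. The first is *cldnj*, *cldne*, *cldnf* and *cldna* in that order, the second *cldnh*, *cldnc* and *cldnb*, and the rest are *oclna* with *marveld2a*, *marveld2b* with *oclnb*, *f11r.2* with *f11r.1*, and *cldn10b* with *cldn10l2*. The genes *cldne*, *cldnf* and *cldna*, 3 of the 5 member claudins that rose, thus stand side by side, at 0.48, 0.47 and 0.62. Whether reads were shared among these adjoining claudins in the authors' counting is not known. The fourth gene of that group, *cldnj*, did not pass and was at -0.48.

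Ratios of counts within a pool do not depend on library size, so they compare neighbours or paralogs directly. The ratio of *cldne* to *cldnj* was 177, 143 and 107 in the EAE pools, against 77.7, 54.8 and 85.8 in the control pools, with no overlap (exact permutation p = 0.1, two-sided, the smallest possible for 3 against 3). The ratio of *cldna* to *cldne* was 0.17, 0.21 and 0.16 in the EAE pools, against 0.15, 0.16 and 0.17 in the control pools, and the groups overlapped (exact p = 0.5). In 22 pairs, chosen after the values were seen, the ratios of the groups did not overlap in 8, and after adjustment over the pairs the exact p of each of these 8 was 0.23. The share of such pairs among other genes was not computed, so the count of 8 has no background to be read against. Several pairs share a gene, 3 of the 8 through *cldnj*, which had only 26 to 44 reads in a pool. Each occludin gene adjoins a tricellulin gene, and the gene of the pair that passed was *oclna* in one and *marveld2b* in the other. Their neighbours *marveld2a* and *oclnb* did not pass but were also above 0, at 0.13 and 0.17. The ratio of *oclna* to *marveld2a* was higher in all EAE pools (7.59, 8.15 and 7.28, against 6.74, 5.87 and 7.03 in controls). The ratio of *oclnb* to *marveld2b* was lower in all EAE pools (3.07, 2.78 and 3.27, against 3.43, 3.28 and 3.41 in controls). Both pairs are among the 8, so these ratios could not decide whether the adjoining genes differed.

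**Figure D3:**
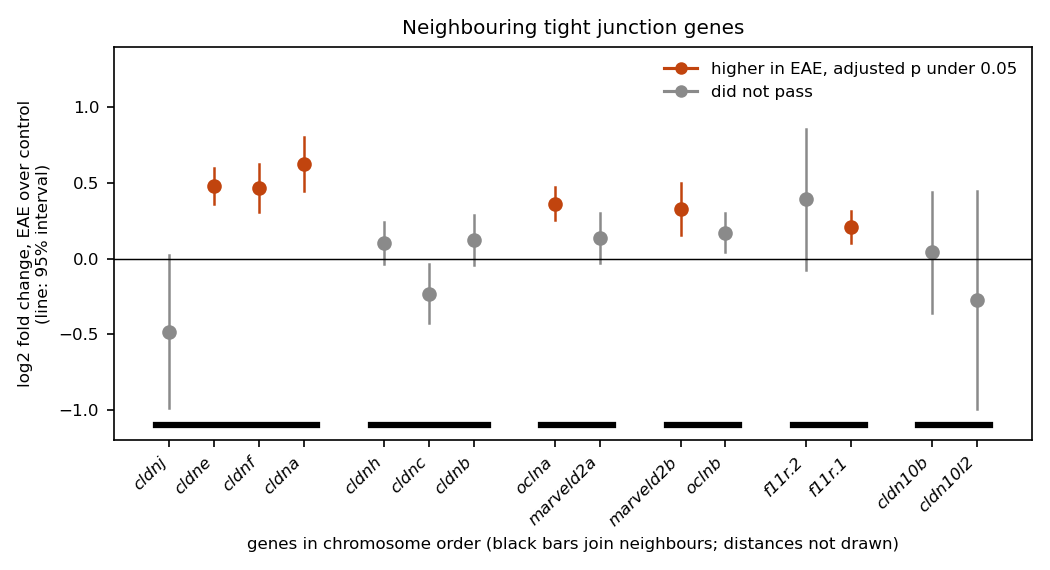
Log2 fold changes (EAE over control, y axis, with 95% intervals) of members that adjoin on a chromosome, drawn in gene order along the x axis with black bars joining neighbours; distances are not drawn. The adjoining genes *cldne*, *cldnf* and *cldna* all rose, while *cldnj* beside them and the group of *cldnh*, *cldnc* and *cldnb* did not pass.

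Some claudins stand in the table under other symbols and are not members. Through RefSeq synonyms, si:ch211-95j8.2 is *cldn23.1*, zgc:110333 is *cldn8.2* and zgc:153311 is *cldn33b*, and 4 more are written in capitals. The reads on si:ch211-95j8.2 numbered 2159, 1736 and 1746 in the EAE pools, against 1347, 1196 and 1253 in the control pools. The rise was 0.43 on the log2 scale (SE 0.06, adjusted p = 6.9e-05). For zgc:110333 the reads were 1133, 944 and 876 in the EAE pools, against 706, 602 and 646 in the control pools, a log2 fold change of 0.46 (adjusted p = 1.2e-04). Both rose about as much as *cldne*, and in RefSeq *cldn8.2* overlaps the untested member *cldn17*. CLDN22 fell, on 6, 7 and 6 reads in the EAE pools against 12, 12 and 15 in the control pools, with a log2 fold change of -1.16 (adjusted p = 0.040), and it passed in 0 of the 6 fits without one pool. zgc:153311, CLDN20 (1 of many) and CLDN23 did not pass, and CLDN34 had too few reads to test.

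Partners of the tight junction were described from a list of apical polarity and adherens junction genes, of which 47 were tested. In EAE larvae 6 rose (12.8%) and 3 fell, with a median log2 fold change of 0.01. Over all tested genes 7.22% rose and 6.95% fell, so the count of lower partners was near the background. The difference from the background was not tested. At the tricellular corner, *ildr1a* and *lsr* encode angulins, which recruit tricellulin. *ildr1a* was at 64.2, 59.2 and 59.1 CPM in the EAE pools, against 47.6, 47.4 and 40.7 CPM in the control pools, a log2 fold change of 0.43 (SE 0.06, adjusted p = 2.1e-04). *lsr* rose by less, at 0.17 (adjusted p = 0.037), and passed in 1 of the 6 fits without one pool. The other angulin genes, *ildr1b* and *ildr2*, both had log2 fold changes of 0.03 and did not pass.

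The adhesion gene *epcam*, whose product binds claudin-7 in mammals, was at 339, 314 and 308 CPM in the EAE pools, against 263, 262 and 265 CPM in the control pools, a log2 fold change of 0.28 (adjusted p = 0.0015). The E-cadherin gene *cdh1* and the p120-catenin gene *ctnnd1* rose, at 0.19 and 0.20. *cdh1* passed in 3 of the 6 fits without one pool and *ctnnd1* in all 6. The Crumbs gene *crb3b*, for an apical polarity protein of epithelia, rose by 0.47 on the log2 scale (adjusted p = 0.0028), whereas *crb3a* was at 0.05. *crb2a*, a Crumbs gene of the retina and neural tube, fell by 0.44 on the log2 scale, the polarity scaffold gene *lin7b* fell by 0.32 and the angiomotin-like gene *amotl2a* fell by 0.17. Of those that fell, *lin7b* passed in 4, *crb2a* in 3 and *amotl2a* in 2 of the 6 fits. Without control replicate 1, 0 partners passed as lower, without control replicate 2 or 3 it was 1, and without EAE replicate 3 it was 5.

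Of 24 tested regulators of claudins or of barrier function, 3 rose (12.5%) and 0 fell, with a median log2 fold change of 0.08. Over all tested genes 7.22% rose and 6.95% fell, and the difference was not tested. The 3 regulators that rose are Grainyhead-like genes, transcription factors that drive epidermal barrier genes in several animals. *grhl3* was at 39.6, 41.5 and 37.3 CPM in the EAE pools, against 24.3, 19.8 and 18.0 CPM in the control pools. The rise of *grhl3* was 0.93 on the log2 scale (SE 0.09, adjusted p = 1.2e-06), wider than that of any tested tight junction gene. *grhl1* was at 50.6, 45.2 and 40.1 CPM in the EAE pools and 35.0, 37.4 and 34.0 CPM in the control pools, a log2 fold change of 0.36 (adjusted p = 0.0038), and passed in all 6 fits. *grhl2a* was at 0.33 (adjusted p = 0.017) and passed in 2 of the 6 fits, while *grhl2b* was at 0.10 and did not pass. The basal skin factor gene *tp63* was at 0.20 (adjusted p = 0.072).

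Markers of tissues that carry tight junctions were examined beside these genes. Every pool held reads of each marker found in the table, and 0 markers were without reads in any pool. The part of these tissues in the changes of the tight junction genes was not tested, for any of the lists. No list was tested against the background of all tested genes, of which 7.22% rose and 6.95% fell. The lists were chosen with earlier results of these data known. Of 21 skin markers 3 rose and 4 fell, with a median of -0.07. The summed level was 13517 to 14945 CPM in the EAE pools, against 14998 to 16165 CPM in the control pools, so it was lower in EAE larvae without overlap. *krt4* had a log2 fold change of -0.07 and did not pass, and *krt5* fell by 0.22 on the log2 scale. The skin sum rested mostly on the keratin genes *krt4*, *krt5*, *krt17* and *krt8*. Its highest EAE pool, at 14945 CPM, and its lowest control pool, at 14998 CPM, lay close together. Of the 21 skin markers 14 did not pass. Those that rose were the keratin gene *cyt1*, the envoplakin gene *evpla* and the annexin gene *anxa1c*, at 0.23, 0.27 and 0.70. Besides *krt5*, the keratin genes *krt17*, *krt97* and *krtt1c19e* fell, at -0.22, -0.20 and -0.81, and *krtt1c19e* is a marker of the basal layer. The count of lower skin markers was 6 without EAE replicate 1, and it was 1 without EAE replicate 2 or 3 or without control replicate 1 or 2.

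Over all tested genes 7.22% rose and 6.95% fell. Of 9 mucous cell markers 5 rose (55.6%) and 1 fell, with a median of 0.48. Their summed level was 377 to 461 CPM in the EAE pools, against 279 to 315 CPM in the control pools. The mucin gene *muc5.1* and *agr2*, which encodes an enzyme of mucin folding, rose, with log2 fold changes of 0.54 and 0.48. The one that fell was *itln2*, a lectin gene, at -0.52, and without EAE replicate 2 or 3 or any control replicate 0 mucous markers passed as lower. Of 16 ionocyte markers 0 rose and 5 fell, with a median of -0.11 and summed levels of 824 to 894 CPM in the EAE pools and 884 to 913 CPM in the control pools. The log2 fold change was below 0 for 14 of the 16 and above 0 for 2, beside 50.2% of all tested genes above 0. *atp1b1b* fell by 0.23 on the log2 scale and *ca2* was at 0.14 and did not pass. Without EAE replicate 2 and without EAE replicate 3, 0 ionocyte markers passed as lower, without control replicate 1 or 2 it was 1, and without control replicate 3 it was 3.

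With 7.22% of all tested genes higher and 6.95% lower, 1 lower gene of 14 is near the background. Of 14 intestinal markers 0 rose and 1 fell, with a median of -0.07 and summed levels of 4658 to 5278 CPM in the EAE pools and 4803 to 5308 CPM in the control pools. All 14 had log2 fold changes below 0, whereas 50.2% of all tested genes were above 0. The one that fell was *anpepb*, an aminopeptidase gene, at -0.20, and the chitinase genes *chia.2* and *chia.1* were at -0.02 and -0.01 and did not pass. Of 14 endothelial markers 0 rose and 1 fell, the lipid transporter gene *mfsd2ab*, at -0.25 (adjusted p = 0.015). The endothelial median was 0.03, with sums of 284 to 289 CPM in the EAE pools and 281 to 293 CPM in the control pools, and *kdrl* was at 0.08. The sums of the vessel markers thus overlapped between the groups, as did *cldn5a* and *cldn5b*. All EAE pools lay below all control pools for 3 of the 14 (*mfsd2ab*, *slc2a1a* and *tek*) and above them for 1 (*tie1*). The background was 16.0% of all tested genes in each direction. Kidney tubule markers had 2 of 14 higher (14.3%), a median of 0.08 and sums of 791 to 844 CPM in the EAE pools and 771 to 815 CPM in the control pools. Among these, *cdh17* was at 0.12 and *slc4a4a* at -0.06. The salt cotransporter genes *slc12a1* and *slc12a3* rose, at 0.39 and 0.52. For both, control replicate 2 was far below the other control pools. *slc12a3* was at 42.9, 37.4 and 43.1 CPM in the EAE pools, against 34.1, 15.9 and 35.3 CPM in the control pools. *slc12a1* was at 13.8, 13.2 and 12.1 CPM, against 11.6, 7.24 and 10.7 CPM. Without EAE replicate 1, 0 kidney markers passed, and 1 passed without EAE replicate 2 or 3 or control replicate 2 or 3.

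For the lists that follow, the shares over all tested genes were again 7.22% higher and 6.95% lower. Myelin markers had 1 of 10 lower and 0 higher, a median of -0.05 and sums of 459 to 486 CPM in the EAE pools, against 491 to 499 CPM in the control pools. These sums did not overlap but lay close. Log2 fold changes were below 0 for 9 of the 10 and above 0 for 1, beside 50.2% of all tested genes above 0. The marker that passed as lower was *egr2b*, a transcription factor gene of Schwann cells and hindbrain, at -0.77. The myelin basic protein genes *mbpa* and *mbpb* were at -0.07 and -0.02, beside *cldnk* at 0.22, and these did not pass. Liver markers had 5 of 10 higher and 1 lower, a median of 0.15 and sums of 2508 to 2872 CPM in the EAE pools, against 2293 to 2509 CPM in the control pools. The liver sums overlapped slightly, at 2508 CPM in the lowest EAE pool and 2509 CPM in the highest control pool. *tfa* and *cp*, for the plasma proteins transferrin and ceruloplasmin, rose by 0.20 and 0.30 on the log2 scale. The liver marker that fell was *ahsg1*, at -0.32 (adjusted p = 0.015), and *serpina1*, *fga*, *fgb* and *fgg* did not pass. Without control replicate 1, 2 liver markers passed as higher, and 3 did without EAE replicate 3 or control replicate 3. Neuron markers had 11 of 15 lower and 0 higher, a median of -0.23 and sums of 3217 to 3559 CPM in the EAE pools, against 3953 to 4058 CPM in the control pools. All 15 had log2 fold changes below 0, beside 50.2% of all tested genes above 0. *gpm6aa* fell by 0.23 on the log2 scale and *atp1a3a* was at -0.16 and did not pass. Of the neuron markers 6 passed as lower without EAE replicate 1 and 6 without control replicate 1, and 7 did without control replicate 3.

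**Figure D4:**
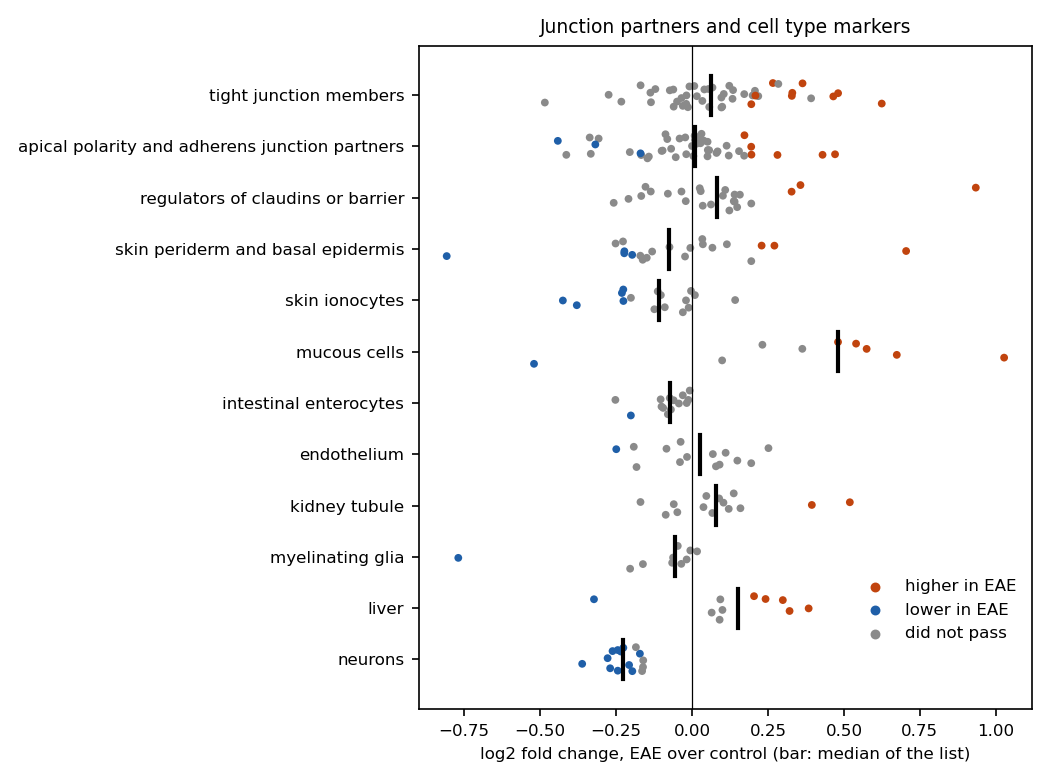
Log2 fold changes (x axis, EAE over control) of each tested tight junction gene, partner, regulator and cell type marker, 1 row per list; points are genes coloured by the adjusted p-value of 0.05, and the black bar is the median of the list. The tight junction genes that rose spread to the right of their median of 0.06, the mucous cell markers have the highest median at 0.48, and the neuron markers the lowest at -0.23.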

How the data were processed

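The data are RNA-Seq libraries of 6 larval pools (3 EAE, 3 control). The authors aligned single-end reads of poly-A selected RNA with STAR (GRCz10) and deposited raw counts for each gene symbol, without normalization or pooling of replicates. The counting program, annotation release, use of strand and handling of multi-mapped reads are not given in the sources used here, which limits paralogs and overlapping genes.

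Of 30714 rows, the 1 without a gene symbol (1.49% to 1.57% of counts) was left out, and 17 rows with names turned into dates were kept but are not named. Within-group pairs of pools differed by more than counting noise (chi-square per degree of freedom 3.56 to 5.07). Counts were analysed with edgeR 4.0.16 in R 4.3.3: filterByExpr, TMM (factors 0.986 to 1.02), and the quasi-likelihood F test over 21617 genes. The standard error was taken as the absolute log2 fold change divided by the square root of F. DESeq2 1.42.0, limma-voom (limma 3.58.1), other normalizations and filters, a 1.5-fold rule, a replicate block and leaving out each pool were alternatives. With 3 pools against 3, the smallest exact two-sided p is 0.1.

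The members and lists were chosen with earlier results of these data known. Every member was accounted for. Values were given in full for members past the threshold, the 5 with the most reads and those known from one tissue. Up to 10 partners or regulators past the threshold and 2 markers with the most reads per list were named, and other genes were named after their values were seen. Neighbours and overlaps came from RefSeq (GRCz12tu), and no coordinates are given.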

Additional observations from a re-analysis of the deposited data

How the results depend on the processing

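The 9 tight junction genes that rose were the same 9 with limma-voom, with RLE or upper-quartile factors and with a minimum of 1 CPM in 3 pools. DESeq2's Wald test kept 8 of them, and the 1.5-fold rule kept 1, *cldna*. Leaving out each pool in turn gave 6 to 10 higher and 0 to 1 lower, and 5 of the 9 (*cldna*, *cldne*, *cldnf*, *cldn7b* and *oclna*) passed each time. Testing without a filter on low counts gave 10 higher and 1 lower, *cldnc*. The median of the members ranged from 0.04 to 0.08 without one pool. For partners, the 1.5-fold rule gave 0 higher and 0 lower, no filter gave 5 lower, and leaving out a pool gave 4 to 7 higher and 0 to 5 lower. Over all genes, 1560 were higher and 1503 lower. DESeq2 gave 948 and 898, the 1.5-fold rule 289 and 142, and leaving out a pool 924 to 1497 higher and 717 to 1499 lower. The counts were 924 and 717 without EAE replicate 1, 953 and 803 without control replicate 1, 1054 and 914 without control replicate 2, and 1138 and 941 without control replicate 3. The median log2 fold change of all genes was 0.00077 in the main fit, -0.00058 with RLE factors and 0.0064 with upper-quartile factors. Among genes that did not pass, the direction turned without one pool for *tjp1a* (-0.052 to 0.018), *cldn5b* (-0.066 to 0.075), *cldn19* (-0.046 to 0.020), *cldn10b* (-0.13 to 0.24), *chia.2* (-0.077 to 0.028), *chia.1* (-0.10 to 0.067) and *mbpb* (-0.036 to 0.018). The causes were not tested.

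Deviations from the group mean were correlated at -0.0086, -0.03 and -0.09 between same-numbered pools, and at -0.03 to 0.07 between the others. With 3 pools per group, deviations from a shared mean constrain one another. These values therefore cannot decide whether the replicate numbers pair the pools. With the replicate block 9 members were higher and 0 lower, with a median of 0.06.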
